A study of Homo sapiens with 18 samples.

Results

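Canagliflozin (CANA), an inhibitor of the sodium-glucose cotransporter SGLT2, was given to 2 human prostate cancer cell lines, and its effect on RNA levels in PC3 cells was set beside its effect in irradiated 22RV1 cells, gene by gene. PC3 is a model of metastatic castration-resistant disease, and 22RV1 is another castration-resistant line. The PC3 libraries were 3 vehicle (DMSO) controls and 3 treated with 10 µM CANA for 24 h, none of them irradiated. All 6 of the 22RV1 libraries compared had received radiation (RT, 5 Gy), 3 of them alone and 3 with 10 µM CANA (CANA + RT), again with 24 h between treatment and lysis. These 12 libraries are part of 18 sequenced, and the remaining 6 are unirradiated 22RV1 controls and 22RV1 given 10 µM CANA, which are set beside the main comparison where they add to it. The genes described are the 12547 that carried a symbol in both tables and had a mean of at least 10 normalized reads in PC3 and a mean rlog of at least 3 in 22RV1, out of 14875 joined by symbol and 21186 listed in either table.

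SGLT2 inhibitors were developed to lower blood glucose through the kidney, and CANA is also known to inhibit mitochondrial respiration. Cells that lack energy or amino acids, or whose mitochondria fail, can turn on the integrated stress response, in which the transcription factor ATF4 drives genes for amino acid synthesis, amino acid transport and aminoacyl-tRNA charging. Entry into S phase rests on the E2F factors, which switch on the genes for DNA replication, nucleotide synthesis and, later, mitosis. Radiation stops the cell cycle through p53 and its target CDKN1A (p21), and repair of the broken DNA draws on homologous recombination and the Fanconi anaemia genes.

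The effect in PC3 is the difference CANA minus control on log2 of the normalized reads plus 1, and the effect in 22RV1 is CANA + RT minus RT on rlog values, a log2 scale on which the differences of genes with few reads are drawn towards 0. A gene is called where its limma p, adjusted by Benjamini-Hochberg over all genes of the fit, was under 0.05, and "apart" means that every treated library lay beyond every reference library. The PC3 libraries held 15807924 to 28327063 reads in genes, and the depth of the 22RV1 libraries is unknown because only rlog values were used. CANA replicate B, the shallowest PC3 library, stood apart from all others: on the first principal component, which carried 66.1% of the variance, it lay at 50.5 and the other 5 libraries between -17.3 and -1.58. With all 6 PC3 libraries no gene was called by limma (percent called 0.0, smallest adjusted p 0.118, 1441 genes higher and 1045 lower at an unadjusted p under 0.05), none was called by edgeR, and DESeq2 called 350. Without CANA B, 2683 of the 13450 PC3 genes tested were called, so PC3 calls below rest on 2 CANA libraries against 3 controls, and the folds and log2 changes given for PC3 leave CANA B out. Where including CANA B moved a PC3 log2 change by more than 1.5 times or turned its sign, the change over all 6 libraries follows in square brackets. Nothing in the labels says whether replicates A, B and C were separate cultures, so p-values measure the spread between these libraries only. The labelled lines were checked by their markers: 10 of 11 PC3 markers held at least 100 normalized reads in PC3 while 1 of 11, LGALS1, was above that level in every 22RV1 library. Of the 10 22RV1 markers, 9 were above it in 22RV1 but 6 held at least 100 normalized reads in PC3 as well, so that these 6 do not mark 22RV1 alone.

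Across the 12547 genes the 2 effects had a Pearson r of 0.21 and a Spearman rho of 0.20 without CANA B, and 0.39 and 0.38 with it. With a curve on transcript length taken from each PC3 library the first r was 0.115, and with the curve in all 12 libraries 0.142. They share no library, and the genes, which are not independent of each other, share a transcript-length trend given further down. Without the cytosolic ribosomal protein genes r was 0.19, and among the 9787 genes with a mean of at least 100 in both lines it was 0.28. Each PC3 CANA library was also set against each CANA + RT library, as differences from the reference means: CANA A gave r of 0.16, 0.12 and 0.21 and CANA C 0.15, 0.11 and 0.20, whereas CANA B gave 0.41, 0.22 and 0.47. The spread of the effects differed, with an SD across genes of 0.21 in PC3 and 0.063 in 22RV1, the latter on the drawn-in rlog scale.

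In PC3 without CANA B, 1318 of the genes were called higher (10.5%) and 1243 lower (9.91%). In irradiated 22RV1, 639 were called higher (5.09%) and 483 lower (3.85%). Both calls were made for 414 genes, of which 88.6% moved the same way: 252 were higher in both lines (2.01%), 115 were lower in both (0.917%), and 47 moved opposite ways (0.375%), 24 of them higher in PC3 and 23 higher in 22RV1. The 367 genes that moved together are 14.3% of the PC3 calls and 32.7% of the 22RV1 calls. Of the 1122 genes called in 22RV1, 792 had the same sign in PC3 without CANA B and 947 with it. With all 12 libraries and no threshold on p, 612 genes were apart and higher in both experiments (4.88%), 514 apart and lower in both (4.1%), and 237 apart in opposite directions (1.89%). In 361 of the 367 the PC3 difference was the larger one, which compares different scales. All 3 CANA libraries, B included, lay beyond the PC3 controls in 247 of the 252 genes, 105 of the 115, 12 of the 24 and 11 of the 23. Single libraries moved the counts: the same-direction genes numbered 197 without CANA C, 237 without PC3 control A and 234 without 22RV1 RT B. The opposite genes numbered 7 without CANA C, 16, 19 and 87 without PC3 control A, B and C, 24 without RT B, and 28 and 30 without CANA + RT A and B.

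**Figure D1:**
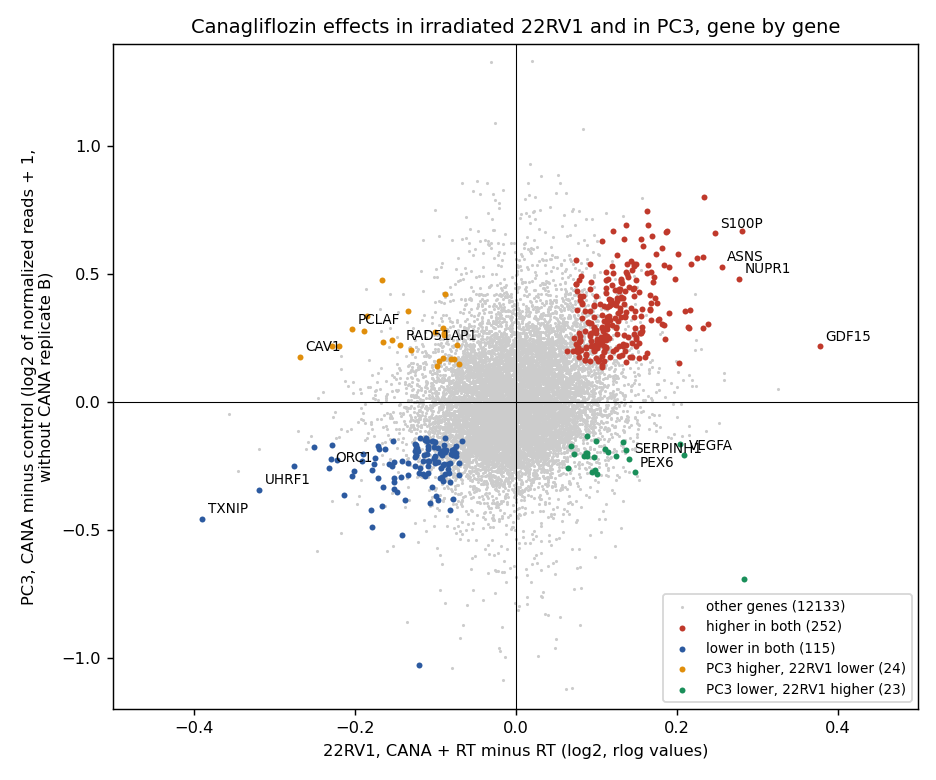
Effect of canagliflozin in irradiated 22RV1 (x axis, CANA + RT minus RT, rlog, a log2 scale) against its effect in PC3 (y axis, CANA minus control, log2 of normalized reads plus 1, without CANA replicate B), one point per gene, with 1 gene outside the plotted range. Coloured points are called in both effects: 252 fall in the upper right quadrant, 115 in the lower left, and 24 and 23 in the others.

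Stress genes were among the leaders of the 252 genes higher in both lines. Of these, 235 were also apart in both experiments with means of at least 100 normalized reads in PC3 and the rlog equivalent in 22RV1, and the first 8 by the smaller of the 2 changes were NUPR1, ASNS, S100P, SNHG8, EIF4A2, RPL21, ELF3 and GDF15. ASNS, asparagine synthetase, an ATF4 target, held 1129, 1032 and 1121 normalized reads in PC3 control A, B and C and 1554, 1794 and 1600 in CANA A, B and C. Its rlog in 22RV1 was 12.13, 12.13 and 12.15 with RT and 12.36, 12.37 and 12.44 with CANA + RT. All treated libraries were above all reference libraries in both lines, by 1.44-fold in PC3 (log2 0.53 ± 0.059 SE, adjusted p = 7.31e-06) and 1.19-fold in 22RV1 (log2 0.26 ± 0.023 SE, adjusted p = 2.42e-09). NUPR1, a small stress-induced chromatin protein, went from 356, 331 and 309 normalized reads in the PC3 controls to 452, 710 and 475 with CANA. It went from an rlog of 11.21, 11.23 and 11.25 with RT to 11.54, 11.46 and 11.51 with CANA + RT in 22RV1. The NUPR1 groups did not overlap, and CANA B was the highest library, with a change of log2 0.48 ± 0.084 SE, adjusted p = 0.000659 in PC3 and log2 0.28 ± 0.025 SE, adjusted p = 2.42e-09 in 22RV1.

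GDF15, a secreted stress cytokine induced by ATF4 and by p53, was, of these 8, the gene whose change was larger in 22RV1. It held 651, 635 and 648 normalized reads in the PC3 controls and 748, 826 and 751 with CANA, and its rlog was 12.59, 12.58 and 12.64 with RT and 12.97, 12.97 and 12.99 with CANA + RT. The rise was 1.16-fold in PC3 (log2 0.22 ± 0.064 SE, adjusted p = 0.0234) and 1.30-fold in 22RV1 (log2 0.38 ± 0.022 SE, adjusted p = 2.53e-14), and the difference between the lines was itself called (-0.16 ± 0.041 SE, adjusted p = 0.0184). CHAC1, which breaks down glutathione and is an ATF4 target, held 188, 184 and 210 normalized reads in the controls and 282, 291 and 294 with CANA in PC3. Its rlog values were 6.18, 6.34 and 6.27 with RT and 6.49, 6.46 and 6.54 with CANA + RT, so that it was apart in both lines and rose 1.48-fold and 1.18-fold. ATF4 itself, the factor that drives these genes, was called higher in both, by 0.15 [0.34] in PC3 and 0.20 in 22RV1 on the log2 scale. MALAT1, a nuclear noncoding RNA named after its values were seen, was called higher by 0.67 [1.14] and 0.28, with overlapping libraries in 22RV1.

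Of the 25 integrated stress response genes tested, 10 were called higher and 2 lower in PC3, 14 higher and none lower in 22RV1, and 6 higher in both. VEGFA, also on this list, was called lower in PC3 (-0.21) and higher in 22RV1 (0.21). The list's median change was 0.16 in PC3 and 0.086 in 22RV1, beside -0.011 and -0.0020 over all genes tested in both. Over all these genes 10.5% were called higher and 9.91% lower in PC3, 5.09% and 3.85% in 22RV1, and 2.01% higher in both. The aminoacyl-tRNA synthetases, which load amino acids onto tRNAs, gave 9 of 19 higher and 1 lower in PC3, 10 higher in 22RV1 and 5 higher in both. TARS1 (threonine) held 6633, 6528 and 6880 normalized reads in the controls and 7512, 8651 and 7835 with CANA, a change of 0.20 (adjusted p = 0.00600), beside 0.12 in 22RV1 (adjusted p = 0.000320). GARS1 (glycine) changed by 0.14 and 0.11, and IARS1 (isoleucine) by 0.22 [0.11] and 0.098, although IARS1 in CANA B, at 5433 normalized reads, was below the controls. In serine, asparagine and one-carbon synthesis, 10 of 17 genes were called higher in 22RV1 but 2 in PC3, ASNS and MTHFD2, the mitochondrial folate enzyme, which rose by 0.17 [0.25] and 0.10. A difference between the lines was called for 5 of the 17, 1 with the larger value in PC3 and 4 with the larger value in 22RV1. Of 17 amino acid transporters, 2 were called higher in PC3 and 5 higher and 1 lower in 22RV1, beside 10.5% higher over all genes in PC3, which is near the list's share, and 5.09% higher in 22RV1. SLC38A2, a glutamine and alanine carrier, rose in PC3 (log2 0.42 ± 0.049 SE, adjusted p = 1.13e-05) and had -0.050 in 22RV1 (adjusted p = 0.147), whereas SLC1A5, another glutamine carrier, rose in 22RV1 (log2 0.19 ± 0.022 SE, adjusted p = 2.88e-07) and had -0.14 in PC3 (adjusted p = 0.0591). The difference was called for both carriers, 0.47 and -0.33.

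The promoters of the stress genes were searched for the composite element bound by C/EBP and ATF factors, written TGATGNAA on either strand, in the 250 bases before each RefSeq start (GRCh38.p14). A promoter was found for 10093 of the 12547 genes (80.4%), and the element stood in 1.33% of these, in 3.19% of all 27305 RefSeq promoters and in 3.79% of the 211 matched genes higher in both. It stood in 3 of 23 stress response genes (13.0%) and in 2 of 16 synthetase genes (12.5%). It was not particular to the stress genes: the AP-1 letters TGANTCA also stood in 13.0% of the 23, beside 0.0% of the 16 and 3.47% of the promoters of tested genes. The windows below show the element in capitals, 5′ to 3′ on the strand of the gene, for 4 genes called higher in both lines, and hold at most 30 bases where an annotated exon overlaps them.
ASNS, chr7:97872458-97872487: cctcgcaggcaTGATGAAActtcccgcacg
CHAC1, chr15:40953251-40953280: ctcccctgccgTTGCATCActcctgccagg
IARS1, chr9:92293698-92293721: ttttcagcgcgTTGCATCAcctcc
S100P, chr4:6693719-6693798: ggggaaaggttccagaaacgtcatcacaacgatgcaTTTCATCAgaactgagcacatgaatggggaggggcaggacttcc
The first base of the element lay 68 bases before the start in ASNS, 209 in CHAC1, 13 in IARS1 and 123 in S100P. CHAC1, IARS1 and S100P carry it on the opposite strand, where the capitals read as its reverse complement. A match says only that these letters occur in the window.

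S100P, a calcium-binding protein of epithelial cells, held 110, 104 and 107 normalized reads in the PC3 controls and 172, 339 and 166 with CANA, CANA B being far above the others. Its rlog was 7.32, 7.39 and 7.41 with RT and 7.70, 7.55 and 7.61 with CANA + RT, and the change was called in both lines (log2 0.66 ± 0.12 SE [0.99], adjusted p = 0.000835 in PC3, log2 0.25 ± 0.052 SE, adjusted p = 0.00163 in 22RV1). ELF3, an epithelial ETS transcription factor, held 620, 543 and 543 normalized reads in the controls and 800, 852 and 852 with CANA. In 22RV1 the same factor read 11.34, 11.35 and 11.41 with RT and 11.58, 11.60 and 11.57 with CANA + RT. The 2 groups were apart in both lines with CANA B close to CANA C, and the change was 1.45-fold in PC3 and 1.16-fold in 22RV1.

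**Figure D2:**
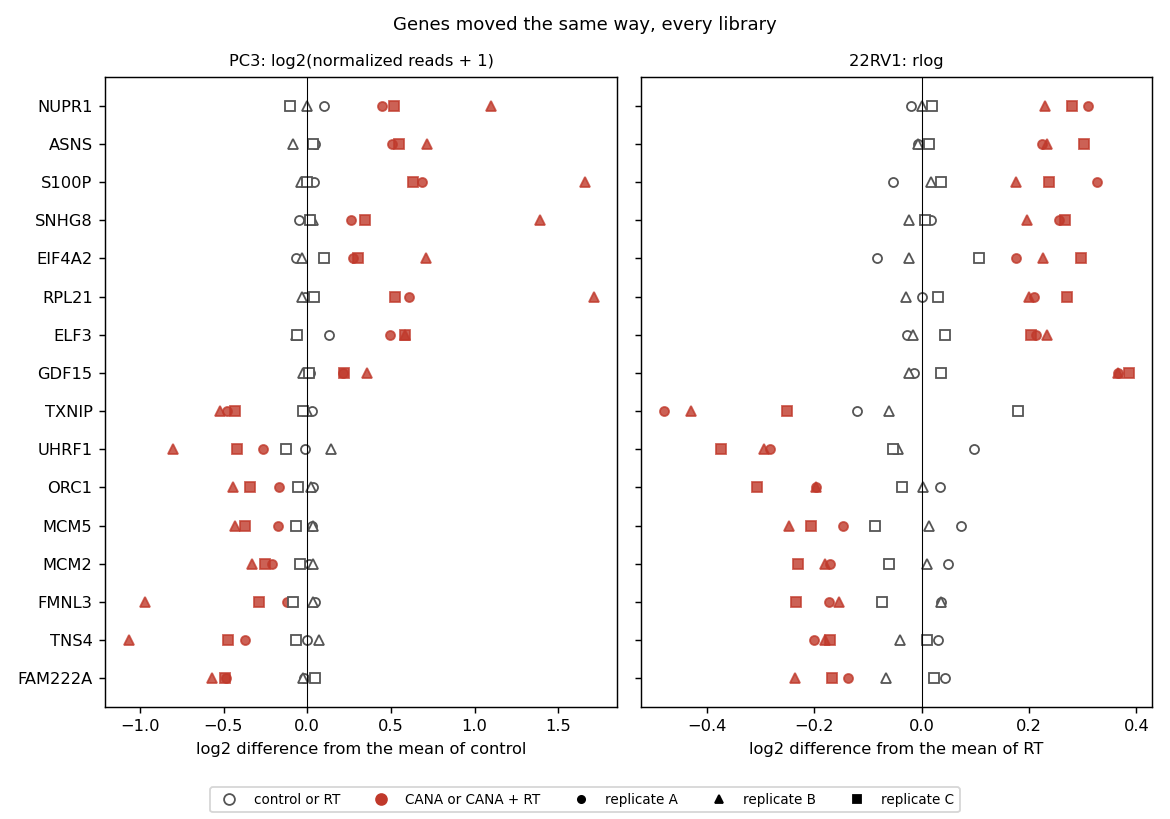
Each library of the 16 genes that lead the groups higher or lower in both lines, as the log2 difference from the mean of the reference libraries (PC3 control on the left, 22RV1 RT on the right). Open symbols are reference and filled symbols treated libraries, and shapes mark replicates A, B and C, where every filled symbol lies on the outer side of the open ones, and CANA B of PC3 is far out for NUPR1, S100P, SNHG8 and RPL21.

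Ribosomal protein genes made up 70 of the 252 genes higher in both. Of the 77 tested, 72 were called higher in PC3 (10.5% over all genes) and 72 in 22RV1 (5.09% over all genes). None was called lower, and the median change was 0.43 in PC3 and 0.14 in 22RV1. By library the median was 0.41, 1.24 and 0.45 in CANA A, B and C and 0.13, 0.11 and 0.17 in CANA + RT A, B and C. RPL21, a protein of the large subunit, held 441, 436 and 458 normalized reads in the controls and 678, 1459 and 640 with CANA, and read 9.32, 9.29 and 9.35 with RT and 9.53, 9.52 and 9.59 with CANA + RT. RPL39 rose by 0.67 [1.02] in PC3 and 0.19 in 22RV1, and RPS28, of the small subunit, by 0.35 [0.65] and 0.19. The 7 members not called in both were RPS2, RPS26, RPL8, RPL17, RPL36A, RPL36AL and RPL41, named after their values were seen. Ribosomal protein genes have many near-identical pseudogenes, so their read counts are uncertain, and their transcripts are short, with a median of 869 bases against 3342 for all genes tested in both. EEF1A1 and TPT1, given next, have such copies too.

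Among translation factors, 16 of 33 were called higher and 5 lower in PC3, 20 higher and 2 lower in 22RV1, and 15 were higher in both. The shares over all genes were 10.5% higher and 9.91% lower in PC3, 5.09% and 3.85% in 22RV1, and 2.01% higher in both. EIF4A2, a helicase that unwinds messenger RNA for initiation, held 3645, 3739 and 4104 normalized reads in the PC3 controls and 4623, 6261 and 4720 with CANA. Its rlog was 11.86, 11.92 and 12.05 with RT and 12.12, 12.17 and 12.24 with CANA + RT, apart in both lines and called (0.29 in PC3 and 0.23 in 22RV1). EEF1A1, the elongation factor that brings aminoacyl-tRNA to the ribosome, rose by 0.40 and 0.13, and TPT1, a growth-linked protein whose mRNA carries a 5′ terminal oligopyrimidine tract, by 0.47 and 0.13. SNHG8, a noncoding host gene of a small nucleolar RNA, held 318, 337 and 333 normalized reads in the controls and 395, 864 and 419 with CANA and rose by 0.30 [0.67] and 0.24. EIF3G was the translation factor with opposite calls, at -0.15 [0.00028] in PC3 and 0.10 in 22RV1. The ETS core CCGGAAG, searched on both strands, stood in 27.4% of 62 ribosomal protein promoters and 26.1% of the promoters of genes higher in both, beside 14.0% of those lower in both, 16.4% of the promoters of tested genes and 8.82% of all promoters. It was not particular to these: it stood in 43.8% of 16 synthetase promoters. Among genes with opposite calls it stood in 27.8% of 18 lower in PC3 and 9.52% of 21 higher in PC3.

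Respiratory chain genes were called higher in PC3 for most members, with fewer called in both lines. Over all genes 10.5% were called higher and 9.91% lower in PC3, 5.09% higher in 22RV1 and 2.01% higher in both. Nuclear complex I subunits gave 20 of 35 higher in PC3, 13 in 22RV1 and 6 in both, and subunits of complexes II to V gave 29 of 40, 15 and 13, with none called lower in either line. These PC3 counts moved with transcript length: with the length curve complex I had 6 higher and 5 lower in PC3, with a median of 0.070 in place of 0.19. Complexes II to V then had 20 higher and 2 lower, the mitochondrial DNA 9 higher and 1 lower, and the mitochondrial ribosome 12 higher and 8 lower. COX5B, a subunit of complex IV, held 2485, 2544 and 2621 normalized reads in the controls and 3368, 6468 and 3498 with CANA, and read 12.34, 12.34 and 12.34 with RT and 12.50, 12.44 and 12.54 with CANA + RT. It was apart in both lines and rose by 0.43 [0.73] in PC3 (adjusted p = 1.05e-05) and 0.15 in 22RV1 (adjusted p = 2.60e-05). NDUFS4, of complex I, rose by 0.63 and 0.11, NDUFA2 by 0.28 [0.60] and 0.099, NDUFA13 by 0.18 [0.58] and 0.14 (-0.074 in PC3 with the curve on transcript length described further down), COX7A2 by 0.38 [0.68] and 0.12, and ATP5ME, of the ATP synthase, by 0.38 [0.78] and 0.13. The 13 protein genes of the mitochondrial DNA gave 12 higher in PC3 (median 0.46) but 3 in 22RV1 (median 0.039), and for 11 of them the difference between the lines was called. ND2, a complex I subunit, held 27432, 26732 and 26562 normalized reads in the controls and 39139, 42232 and 41011 with CANA, without overlap. Its rlog in 22RV1 was 15.03, 14.98 and 14.98 with RT and 15.02, 14.96 and 14.94 with CANA + RT, which overlap, and the difference between the lines was 0.60 ± 0.044 SE, adjusted p = 8.91e-06. COX1 rose in both, by 0.46 and 0.075, as did ND3 (0.46 and 0.075) and ATP8 (0.33 and 0.12, but -0.064 in PC3 with the curve on transcript length), though the difference was called for COX1 and ND3 and not for ATP8 (adjusted p = 0.235). Mitochondrial ribosomal proteins gave 20 of 73 higher and 2 lower in PC3, 15 higher in 22RV1 and 3 higher in both, MRPS22, MRPS21 and MRPS33, whose changes were 0.32 [0.48], 0.25 [0.48] and 0.35 [0.62] in PC3 and 0.11, 0.10 and 0.085 in 22RV1.

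Some sterol, iron and lysosomal genes were higher in both lines too. Over all genes 10.5% were called higher and 9.91% lower in PC3, 5.09% higher in 22RV1 and 2.01% higher in both. Cholesterol synthesis gave 8 of 24 called higher in each line and 4 in both, with none lower. MSMO1, a sterol demethylase, held 715, 716 and 815 normalized reads in the controls and 1003, 1191 and 1087 with CANA, and 10.55, 10.57 and 10.62 with RT and 10.79, 10.74 and 10.80 with CANA + RT. It was apart in both lines, with changes of 0.48 and 0.20. HMGCS1, which makes HMG-CoA, rose by 0.29 and 0.11, and FDFT1, squalene synthase, by 0.29 and 0.12. The ferritin chains FTL (0.29 [0.50] and 0.21) and FTH1 (0.23 [0.42] and 0.15), which store iron, and AKR1C2, a steroid-reducing enzyme with near-identical paralogs and 27.2 to 29.3 normalized reads in the PC3 controls, were the 3 of 23 NRF2 and ferritin genes higher in both. That list gave 6 higher and 4 lower in PC3 and 6 higher in 22RV1, and its member TKT was called opposite ways (-0.21 and 0.085). The metallothionein MT1G, a metal-binding protein of a family of near-identical genes, rose by 0.75 and 0.16. Of the subunits of the V-ATPase, the proton pump of lysosomes, ATP6V1D (0.37 and 0.12) and ATP6V1E1 (0.28 [0.44] and 0.097) rose in both, while ATP6V1C1 had 0.16 in PC3 and -0.096 in 22RV1, both called.

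DNA replication genes were the largest functional group listed here among the genes lower in both. Of 50 tested, 26 were called lower in 22RV1 and none higher, 13 lower and 4 higher in PC3, and 9 lower in both. The shares over all genes were 3.85% lower in 22RV1, 9.91% lower and 10.5% higher in PC3, and 0.917% lower in both. The list's median was -0.052, 0.084 and -0.080 in CANA A, B and C, so that CANA B was the library on the other side of 0, and -0.088, -0.11 and -0.11 in CANA + RT A, B and C. TXNIP, a thioredoxin-binding protein that restrains glucose uptake, ranked first of the 96 genes lower in both that met the same conditions and is not a replication gene: it held 3474, 3400 and 3355 normalized reads in the PC3 controls and 2443, 2378 and 2529 with CANA. Its rlog was 13.24, 13.30 and 13.54 with RT and 12.88, 12.93 and 13.11 with CANA + RT, apart in both lines, and it fell to 0.73 of control in PC3 (log2 -0.46 ± 0.049 SE, adjusted p = 3.74e-06) and 0.76 of RT in 22RV1 (log2 -0.39 ± 0.045 SE, adjusted p = 2.87e-07). UHRF1, which carries DNA methylation through replication, held 2408, 2679 and 2225 normalized reads in the controls and 2020, 1391 and 1816 with CANA. It read 9.32, 9.18 and 9.17 with RT and 8.94, 8.93 and 8.85 with CANA + RT, and changed by -0.34 in PC3 (adjusted p = 0.00195) and -0.32 in 22RV1 (adjusted p = 2.07e-06). In bulk RNA, fewer cells in S phase and less RNA per cell cannot be told apart.

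MCM5 and MCM2, subunits of the replicative helicase, and ORC1, which loads it, were apart in both lines. MCM5 held 2145, 2157 and 2008 normalized reads in the controls and 1865, 1556 and 1627 with CANA, and read 11.46, 11.40 and 11.30 with RT and 11.24, 11.14 and 11.18 with CANA + RT. The change was log2 -0.27 ± 0.061 SE, adjusted p = 0.00490 in PC3 and log2 -0.20 ± 0.030 SE, adjusted p = 2.18e-05 in 22RV1. MCM2 went from 3205, 3259 and 3082 to 2755, 2531 and 2673 normalized reads and from an rlog of 12.14, 12.10 and 12.03 to 11.92, 11.91 and 11.86. ORC1 went from 797, 789 and 748 to 691, 571 and 613 normalized reads and from 9.25, 9.22 and 9.18 to 9.02, 9.02 and 8.91. The difference between the lines was not called for any of these 3 genes, at -0.070 ± 0.078 SE, adjusted p = 0.559 for MCM5, -0.038 ± 0.051 SE, adjusted p = 0.633 for MCM2 and -0.025 ± 0.076 SE, adjusted p = 0.847 for ORC1. CLSPN, a replication checkpoint adaptor, and TK1, thymidine kinase, were called lower without CANA B (-0.25 [-0.077] and -0.23 [-0.083]), yet CANA B held more reads of both than any control, 2347 for CLSPN and 7120 for TK1. The remaining leading genes were TNS4, a focal adhesion protein (-0.42 [-0.64] and -0.18), FMNL3, an actin nucleator (-0.20 [-0.46] and -0.19), and FAM222A (-0.49 and -0.18).

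E2F2 was the member of the E2F list called lower in both lines. It held 287, 284 and 258 normalized reads in the PC3 controls and 196, 187 and 189 with CANA, and read 10.72, 10.66 and 10.72 with RT and 10.56, 10.57 and 10.55 with CANA + RT, without overlap. The fall was larger in PC3, -0.52 against -0.14, with a called difference (-0.38 ± 0.066 SE, adjusted p = 0.00273). E2F1 was called lower in 22RV1 (-0.18) and had -0.088 [-0.0007] in PC3 (adjusted p = 0.260), and E2F7, a repressor of the family, had -0.22 in 22RV1 (called) and -0.14 [-0.36] in PC3 (adjusted p = 0.0872). E2F3 and E2F4 were called lower in PC3 (-0.19 and -0.20) with -0.089 and -0.0030 in 22RV1 (adjusted p = 0.130 and 0.969). The partner TFDP1 was called lower in 22RV1 (-0.098) with -0.13 in PC3 (adjusted p = 0.0712). A difference between the lines was called for E2F4 (-0.19) but not for E2F1, E2F3, E2F7 or TFDP1. Promoters were searched for the E2F letters TTTCCCGC, TTTGGCGC, TTTCGCGC and TTTGCCGC on both strands: 12.9% of 93 genes lower in both held one, 31.0% of 42 replication genes, 3.79% of 211 genes higher in both, 4.62% of the promoters of tested genes and 2.79% of all promoters.
E2F2, chr1:23531234-23531311: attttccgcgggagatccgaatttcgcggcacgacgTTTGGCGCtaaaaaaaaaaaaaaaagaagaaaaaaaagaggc
FAM222A, chr12:109713626-109713705: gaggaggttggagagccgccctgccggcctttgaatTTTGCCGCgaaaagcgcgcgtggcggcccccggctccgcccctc
MCM7, chr7:100101566-100101595: cagctcggaccGCGGGAAAcccggcgcctg
MCM7, chr7:100101398-100101417: ggggggcgacgTTTCGCGCc
UHRF1, chr19:4909476-4909500: gccgagttttcGCGGGAAAaaaatc
The capitals mark the match in genes called lower in both lines, and GCGGGAAA is TTTCCCGC read on the other strand. The match began 42 bases before the start in E2F2, 163 in FAM222A, 187 and 9 in MCM7 and 14 in UHRF1. MCM7, another helicase subunit, was chosen for display after its promoter was searched.

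Of 59 mitosis genes, 23 were called lower and 2 higher in PC3, 9 lower in 22RV1 and 5 lower in both, beside 9.91% lower in PC3 and 3.85% lower in 22RV1 over all genes, and the difference was called with the lower value in PC3 for 20 and with the higher value for 3. FOXM1, the factor that drives G2 and M genes, held 4165, 4125 and 3990 normalized reads in the controls and 3373, 2678 and 3311 with CANA, and read 11.83, 11.79 and 11.79 with RT and 11.71, 11.70 and 11.71 with CANA + RT. It was apart in both lines and changed by -0.29 in PC3 and -0.091 in 22RV1, with a called difference (-0.20 ± 0.040 SE, adjusted p = 0.00554). MKI67, the proliferation marker, changed by -0.30 [-0.70] and -0.15, and ESPL1, the protease that splits sister chromatids, by -0.40 [-0.62] and -0.11. CDC20, an activator of the anaphase-promoting complex, held 4270, 4416 and 4039 normalized reads in the controls and 3264, 3783 and 3118 with CANA, but 11.68, 11.68 and 11.73 with RT and 11.76, 11.71 and 11.78 with CANA + RT. It changed by -0.41 in PC3 (adjusted p = 2.56e-05) and had 0.051 in 22RV1 (adjusted p = 0.206), a difference of -0.46 ± 0.053 SE, adjusted p = 0.000228.

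Of the 47 genes with opposite calls, the PC3 change was positive in 24, and 11 of these met the same conditions. PCLAF, a factor bound to the replication clamp PCNA, held 1012, 944 and 1204 normalized reads in the PC3 controls and 1217, 2007 and 1338 with CANA. Its rlog was 10.04, 10.11 and 10.10 with RT and 9.85, 9.84 and 9.95 with CANA + RT, so that the CANA libraries were above the controls in PC3 and below RT in 22RV1 (log2 0.28 ± 0.081 SE [0.50], adjusted p = 0.0192 and log2 -0.20 ± 0.032 SE, adjusted p = 5.14e-05). RAD51AP1, a homologous recombination factor, held 650, 639 and 715 normalized reads in the controls and 774, 1039 and 783 with CANA, against an rlog of 10.19, 10.17 and 10.11 and 10.04, 10.00 and 10.01. RRM1, the large subunit of ribonucleotide reductase, changed by 0.14 and -0.098, whereas its partner RRM2 fell in both (-0.18 and -0.25). DCK, deoxycytidine kinase, changed by 0.17 and -0.090, the DNA helicase RECQL by 0.20 and -0.13, the ubiquitin ligase RNF141 by 0.27 and -0.10, and BCAP29, a protein of the endoplasmic reticulum, by 0.27 and -0.090. CAV1, the coat protein of caveolae and one of the PC3 markers, held 11855, 11644 and 12272 normalized reads in the controls and 13270, 14222 and 13687 with CANA, and an rlog of 6.88, 6.93 and 6.99 with RT and 6.64, 6.66 and 6.69 with CANA + RT. It was among the 17 genes whose difference was called with all 12 libraries (0.44 without CANA B, 0.47 with it, adjusted p = 0.0294), a count that came to 1 with array weights and to 1 or 2 without PC3 control A or B or any single 22RV1 library.

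Homologous recombination and Fanconi genes had no same-direction call in common. Over all genes 2.01% were higher and 0.917% lower in both, so that a count of 0 among 36 is near those shares. Of the 36 tested, 6 were called higher and 1 lower in PC3, 10 lower and none higher in 22RV1. The shares over all genes were 10.5% higher and 9.91% lower in PC3 and 3.85% lower in 22RV1. A difference was called for 9, always with the higher value in PC3, and the median was 0.037 in PC3 (-0.050 in CANA B) and -0.066 in 22RV1. BRIP1, a helicase of the Fanconi pathway, held 2015, 2100 and 2349 normalized reads in the controls and 2480, 1781 and 2525 with CANA, with CANA B below the controls and CANA A and C above them. Its rlog was 9.41, 9.42 and 9.34 with RT and 9.24, 9.15 and 9.12 with CANA + RT, and the opposite calls (0.22 [0.055] and -0.22) thus rest on leaving CANA B out. PCNA was the other replication gene beside RRM1 with opposite calls, at 0.17 [0.39] in PC3 and -0.077 in 22RV1. Among the 12 libraries compared only 22RV1 was irradiated, so they cannot tell the line and the radiation apart as the source of a difference. The unirradiated 22RV1 libraries are described further down, and the source was not tested with them.

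Among the 23 genes lower in PC3 and higher in 22RV1, VEGFA stood first of the 10 that met the same conditions. CYP1A1, a target of the aryl hydrocarbon receptor with a mean of 54.4 normalized reads in PC3 and named after its values were seen, changed by -0.69 and 0.28 and was apart in both. VEGFA, an angiogenic factor and a target of HIF-1 and ATF4, held 6059, 6260 and 6091 normalized reads in the PC3 controls and 5358, 4678 and 5268 with CANA. In 22RV1 it read 11.28, 11.42 and 11.54 with RT and 11.67, 11.61 and 11.59 with CANA + RT. The groups were apart in opposite directions, and the changes of -0.21 and 0.21 gave a difference of -0.42 ± 0.073 SE, adjusted p = 0.00283. GATA2, a zinc finger transcription factor, held 425, 449 and 455 normalized reads in the controls and 362, 333 and 366 with CANA, and an rlog of 11.64, 11.62 and 11.63 with RT and 11.75, 11.71 and 11.73 with CANA + RT. SERPINH1, the collagen chaperone, PLOD1, a collagen lysyl hydroxylase, and P4HTM, a prolyl hydroxylase of the endoplasmic reticulum, also belong here, and their changes were -0.22, -0.21 and -0.20 in PC3 and 0.14, 0.088 and 0.088 in 22RV1. PEX6, needed for peroxisome assembly, changed by -0.28 and 0.15, the signalling adaptor GRB10 by -0.16 [-0.29] and 0.13, and ACSL1, which activates fatty acids, by -0.26 and 0.098. Of the 24 and 23 genes with opposite calls, 12 and 11 were also apart in both experiments, CANA B included. Just inside and outside the first 8 of each class, the smaller change was 0.0899 and 0.0893 for genes higher in PC3 and 0.0877 and 0.0845 for genes lower in PC3, against 0.2172 and 0.2168 for genes higher in both and 0.1792 and 0.1784 for genes lower in both.

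**Figure D3:**
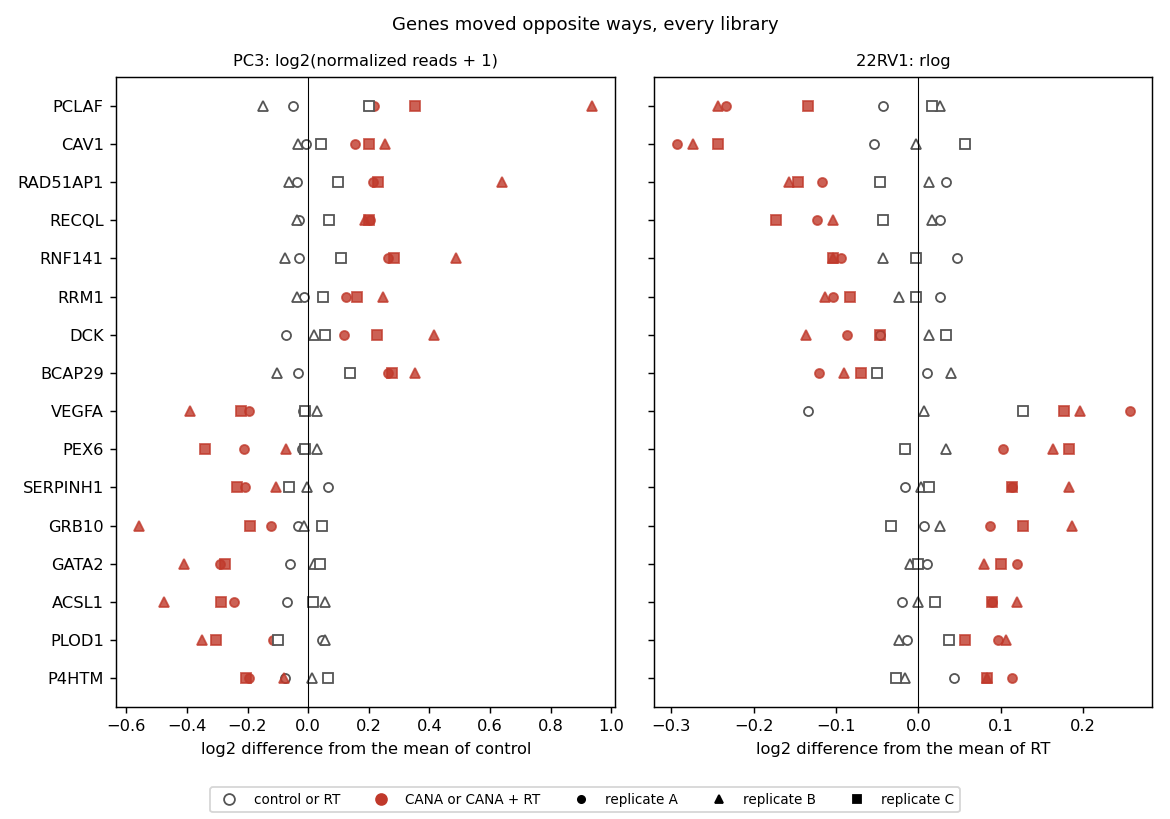
Each library of the 16 leading genes with opposite calls, as the log2 difference from the mean of PC3 control (left) or 22RV1 RT (right). Open symbols are reference libraries, filled symbols are treated libraries, and shapes mark replicates A, B and C. The treated libraries of the first 8 genes lie to the right in PC3 and to the left in 22RV1, and those of the last 8 the other way round.

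The difference between the effects, PC3 minus 22RV1, was called for 17 genes with all 12 libraries (0.135%), beside 2314 at an unadjusted p under 0.05, and for 2272 without CANA B (18.1%). It was called for all 47 opposite genes and for 166 of the 367 that moved together, where it is a difference in size. That size compares different scales, since rlog draws the 22RV1 differences of genes with few reads towards 0. With rlog values of the recovered PC3 reads the count of 2272 came to 1446. The 47 were chosen for opposite calls on the same libraries, so a called difference was largely fixed by that choice. TFPI, an inhibitor of tissue factor, had the smallest p among genes with the higher value in PC3: it held 927, 946 and 930 normalized reads in the PC3 controls and 1583, 1702 and 1662 with CANA, a 1.74-fold rise. Its rlog was 12.22, 12.20 and 12.23 with RT and 12.28, 12.23 and 12.17 with CANA + RT, which overlap. FST, the activin antagonist follistatin, held 4551, 4674 and 4869 normalized reads in the controls and 7814, 11594 and 8038 with CANA and 8.13, 8.06 and 8.18 against 8.16, 8.21 and 8.21 in 22RV1. SOD2, the mitochondrial superoxide dismutase, rose by 0.50 in PC3 with -0.0002 in 22RV1 (adjusted p = 0.999). DUSP5, a nuclear phosphatase of ERK, held 1499, 1460 and 1591 normalized reads in the controls and 2542, 2740 and 2474 with CANA, and rose 1.65-fold with 0.13 in 22RV1 (adjusted p = 0.114). RPL37 and RPL23A rose in both lines but more in PC3, by 0.69 and 0.56 [0.86] against 0.14 and 0.074.

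With the opposite sign, PMEPA1, a TGF-beta target that dampens its signalling, fell in PC3 from 1686, 1626 and 1649 to 1119, 1220 and 1162 normalized reads. It read 11.56, 11.50 and 11.46 with RT and 11.58, 11.58 and 11.51 with CANA + RT, overlapping, and the difference was -0.59 ± 0.050 SE, adjusted p = 2.75e-05. TRIM28, a corepressor of zinc finger proteins, fell in PC3 from 12198, 12255 and 12071 to 9651, 9765 and 9882 normalized reads, without overlap. Its rlog was 13.93, 13.88 and 13.90 with RT and 13.87, 13.89 and 13.88 with CANA + RT, for a difference of -0.29. FERMT1, an integrin activator, changed by -0.46 in PC3 and -0.039 in 22RV1 (adjusted p = 0.545), and MFSD2A, a lipid transporter, by -0.44 and 0.066 (adjusted p = 0.237). CDKN1A, the p21 inhibitor of cyclin-dependent kinases, was the reverse case of a gene called in 22RV1 alone: it held 920, 843 and 805 normalized reads in the controls and 791, 829 and 825 with CANA, which overlap, and went from 13.78, 13.81 and 13.88 to 14.02, 14.08 and 14.12 in 22RV1 (log2 0.25 ± 0.025 SE, adjusted p = 2.01e-08, difference -0.33).

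From the genes that the study names for these 2 comparisons, 28 were taken as a list, and 26 of them were tested in both lines. In this list 8 were called the same way in both (ATF4, E2F2, ELF3, EP300, GDF15, MCM4, RRM2 and TXNIP) and GATA2 and ETV4 opposite ways. The list is not complete: CDC25A, CDK2, GTSE1 and PIK3R3, which the study also names, were called lower in both. VEGFA, which it gives as VEGF, was called opposite ways. Genes named by the study were chosen on these samples, so their directions are not independent evidence. ATF3, a stress-induced factor, was called higher in 22RV1 (0.17) and had 0.017 [0.0023] in PC3, with no called difference. KLF11 and KLF10, transcription repressors induced by TGF-beta, fell in 22RV1 (-0.24 and -0.36) but had 0.040 [-0.044] and -0.048 [-0.13] in PC3, a called difference for both (0.28 and 0.31). ETV4, an ETS factor and a readout of ERK signalling, held 3315, 3317 and 3060 normalized reads in the controls and 2970, 3306 and 2789 with CANA, so that CANA B lay among the controls, and 9.13, 9.15 and 9.16 with RT and 9.35, 9.31 and 9.39 with CANA + RT. EP300, a histone acetyltransferase, changed by -0.25 [-0.65] and -0.11, and MCM4 by -0.17 and -0.23. GJA1 (connexin 43) and ROCK2 were called lower in 22RV1 (-0.15 and -0.16) with 0.045 [0.020] and -0.045 [-0.22] in PC3. ELK1 was called lower (-0.16 [-0.24]) and MXI1 higher (0.26) in PC3 with -0.0098 and 0.068 in 22RV1. TAOK3 was called lower in 22RV1 (-0.098) with 0.12 in PC3. Of these 5 genes the difference was called for TAOK3 (0.22).

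Further pathways were set side by side. Over all genes 10.5% were called higher and 9.91% lower in PC3, and 5.09% and 3.85% in 22RV1. A joint list of HIF targets and VHL ubiquitin ligase genes, the latter not HIF targets as such, gave 7 of 20 higher and 2 lower in PC3 and 6 higher in 22RV1. In it ADM, a vasodilator peptide (0.29 and 0.21), and NDRG1, a hypoxia-responsive protein (0.39 and 0.17), were higher in both. The NDRG1 libraries overlapped in 22RV1. VEGFA, also on this list, was called opposite ways (-0.21 and 0.21). p53 targets gave 5 higher and 5 lower of 36 in PC3, near the shares over all genes, and 8 higher and none lower in 22RV1. Of these, GDF15, PHLDA3 (0.35 and 0.14) and CCNG1 (0.42 and 0.084) were higher in both. PC3 is known to lack functional p53. The Wnt list gave 7 of 34 lower in PC3 and 1 lower in 22RV1, the latter near the 3.85% over all genes. The receptor FZD8 had -0.23 and 0.089, and the ligand WNT5A -0.28 and -0.010, with the PC3 value called and the difference called for both. MAP kinase, PI3K and AKT genes gave 3 higher and 13 lower of 52 in PC3, 1 higher and 4 lower in 22RV1, and IRS1, the insulin receptor substrate (-0.26 [-0.53] and -0.12), and PIK3R3, a regulatory subunit of PI3 kinase (-0.37 and -0.099), lower in both. B2M, of the class I complex, rose in PC3 (0.44) with 0.061 in 22RV1. TNFAIP3, an inhibitor of NF-kB, rose in PC3 (0.42 [0.25], CANA B being inside the controls) with -0.081 in 22RV1. OAS3, an interferon-induced enzyme, fell in 22RV1 (-0.26) with -0.18 [-0.49] in PC3.

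**Figure D4:**
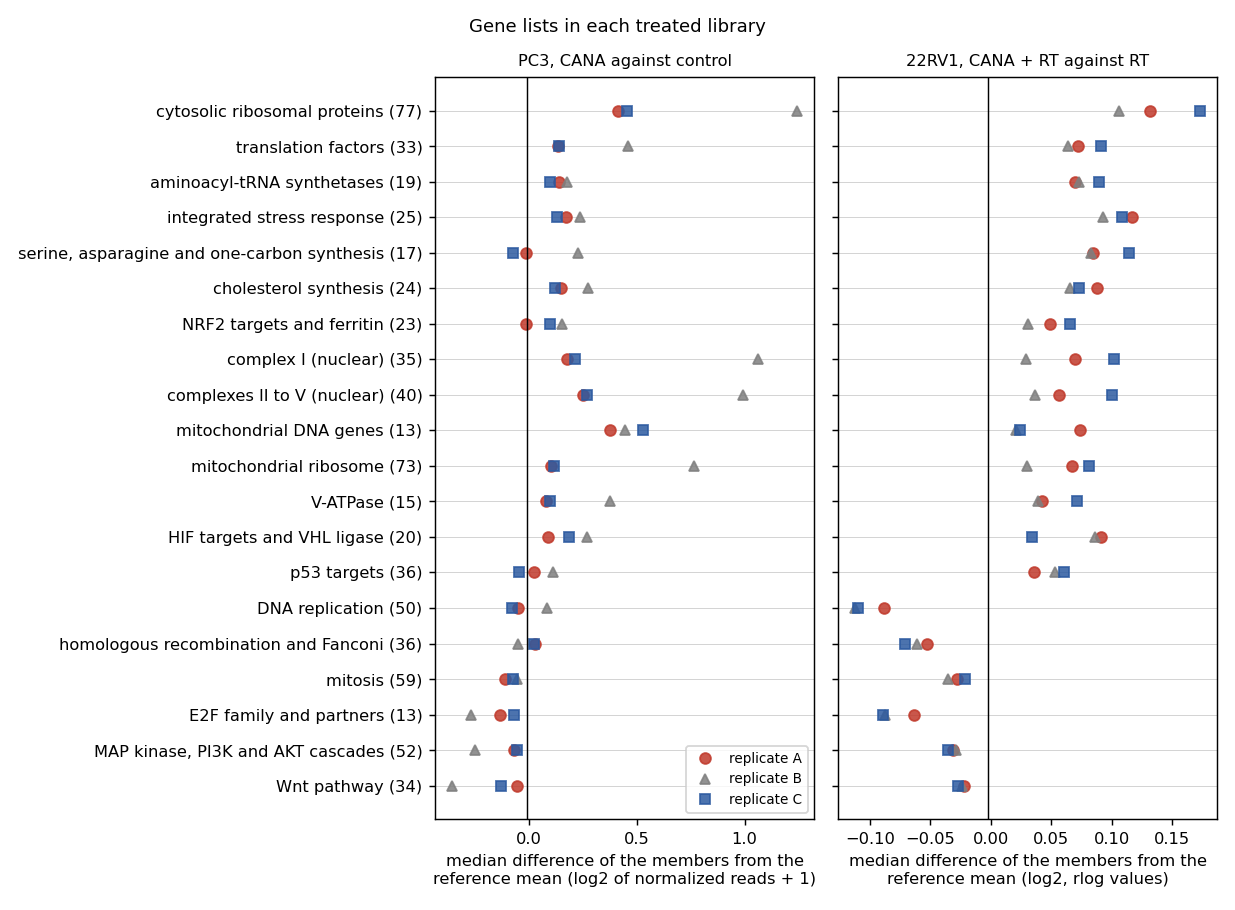
Median difference of each gene list from the reference mean in each treated library, for PC3 (left, log2 of normalized reads plus 1) and irradiated 22RV1 (right, rlog), with the number of genes tested in brackets and the median of all genes as a vertical line. Ribosomal, translation and stress lists lie to the right in both lines and replication, mitosis and E2F lists to the left, apart from replication in CANA B, while homologous recombination lies near 0 in PC3 and to the left in 22RV1.

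Transcript length moved with both effects. The correlation of the effect with log2 transcript length over 12242 genes was -0.21 in PC3 without CANA B, -0.52 with it and -0.39 in 22RV1, beside 0.051 for CANA minus control in unirradiated 22RV1. By library it was -0.18 in CANA A, -0.63 in CANA B and -0.18 in CANA C, and -0.37, -0.19 and -0.43 in CANA + RT A, B and C. In the shortest class of genes (median 809 bases) the median difference was 0.15, 0.80 and 0.15 in CANA A, B and C, and in the longest (median 10120 bases) -0.043, -0.57 and -0.048. Genes higher in both had a median length of 1276 bases and genes lower in both 5419, against 3342 for all genes tested in both. With a smooth curve on length taken from each of the 12 libraries, an alternative added after the data were seen, the same-direction genes numbered 224 in place of 367 and the opposite genes 38 in place of 47. Under that curve the lists higher in both came to 61 ribosomal proteins (70 without it), 12 translation factors (15), 5 tRNA synthetases (5), 4 stress response genes (6) and 6 cholesterol genes (4). Among respiratory genes the curve left 1 complex I gene in place of 6, 4 genes of complexes II to V in place of 13 and none of the mitochondrial DNA in place of 3, and 9 replication genes were lower in both with or without the curve. The part of the length trend in these results was not tested further.

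**Figure D5:**
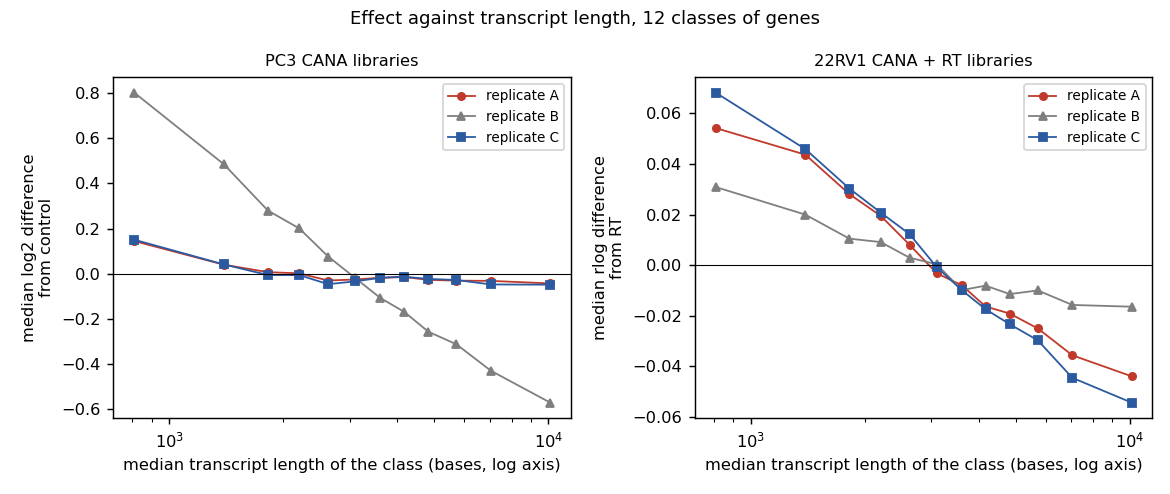
Median effect in 12 classes of genes by transcript length (x axis, bases, log axis) for each PC3 CANA library (left, log2 difference from control) and each 22RV1 CANA + RT library (right, rlog difference from RT). All 6 lines fall from short to long transcripts, and CANA B of PC3, from 0.80 to -0.57, is the steepest.

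Unirradiated 22RV1 cells given the same dose of CANA gave no called gene (percent called 0.0), with 223 of the 12547 genes at an unadjusted p under 0.05. This is a result of limma on rlog values. The study, which used DESeq2 on read counts, reports significant genes in both directions for this comparison. The unirradiated effect had r of 0.28 with that of PC3 without CANA B and 0.069 with that of irradiated 22RV1. The sign of the unirradiated effect was that of the 2 others in 216 of the 252 genes higher in both and in 96 of the 115 lower in both, and it was the sign of PC3 in 20 of the 24 and 19 of the 23 genes with opposite calls. Sign agreement over all genes was not counted, so these counts have no share to be set beside. The median over the 252 was 0.032 and over the 115 -0.022, beside 0.12 and -0.11 in irradiated cells. In single genes the unirradiated change was 0.086 for ASNS, 0.065 for NUPR1, 0.059 for GDF15, -0.12 for TXNIP and -0.049 for MCM2, and none of these was called.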

How the data were processed

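RNA of PC3 and 22RV1 cells was sequenced by the authors as single 50-base reads after a stranded library preparation, and per the study's methods the reads were trimmed with Trimmomatic and Cutadapt, aligned to hg38 with HISAT2, counted over exons with featureCounts in the reverse-stranded mode and passed to DESeq2 on Galaxy; versions are not given in the sources used here. The deposited PC3 table holds a signal, reads divided by a size factor, and 99.9989% of its values came out as whole reads within 0.01 once the factor was recovered. The deposited 22RV1 tables hold rlog values, a log2 scale on which genes with few reads are drawn towards 0, so their depth is unknown. Fold changes and p-values of the authors were not used, nor were 51 columns of values that no sample name matched.

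PC3 values were taken as log2(value + 1) and genes with a mean of at least 10 kept. 22RV1 genes were kept at a mean rlog of at least 3. Both were fitted with limma 3.58.1 (R 4.3.3, empirical Bayes with trend), and the difference between the effects with a joint limma fit of the 4 groups, all tests being two-sided with Benjamini-Hochberg adjustment over all genes of the fit. The PC3 and joint fits were run with and without CANA replicate B. The recovered PC3 reads were also tested with edgeR 4.0.16 and DESeq2 1.42.0, and the fits were tested on simulated data. Transcript lengths were those of the Ensembl canonical transcripts in GENCODE, and promoters came from RefSeq on GRCh38.p14. Named genes were the 8 leaders of each direction class by the smaller change (called in both, libraries apart in both with CANA B included, means of at least 100), the 6 leaders of each sign of the difference, up to 3 members per list (2 where none was called in both) and a list of 28 genes taken from those the study names. These rules, the gene lists and the comparison itself were chosen with earlier results of these data known. MALAT1, CYP1A1, EIF3G, PCNA, MCM7, TKT and the 7 ribosomal protein genes not called in both were chosen after their values were seen.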

Additional observations from a re-analysis of the deposited data

Results flagged for a closer look

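The 2 effects differed by a test of the difference itself, PC3 minus irradiated 22RV1 on the log2 scale, for 17 genes with all 12 libraries and for 2272 without CANA replicate B of PC3. The values in brackets below are that difference without CANA B, for each named gene that passed. Genes with opposite calls, and the leaders by the p of the difference, were chosen on these libraries. Their passing therefore follows largely from the choice. A positive value means that the change in PC3 was the higher one. The 12 libraries cannot tell the line and the radiation apart as its source, and the unirradiated 22RV1 libraries were not part of this test. The 22RV1 values are rlog, which draws differences of genes with few reads towards 0.

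Genes that rose in PC3 and fell in 22RV1 were PCLAF (0.487), CAV1 (0.445), RAD51AP1 (0.366), RECQL (0.334), RNF141 (0.374), RRM1 (0.24), DCK (0.263), BCAP29 (0.361), BRIP1 (0.439) and ATP6V1C1 (0.254). Genes that fell in PC3 and rose in 22RV1 were VEGFA (-0.416), PEX6 (-0.423), SERPINH1 (-0.362), GRB10 (-0.29), GATA2 (-0.383), ACSL1 (-0.363), PLOD1 (-0.299), P4HTM (-0.289) and ETV4 (-0.37).

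Genes called higher in both, with the larger rise in PC3, were ASNS (0.273), CHAC1 (0.333), S100P (0.413), ELF3 (0.322) and IARS1 (0.121) among stress and epithelial genes, RPL21 (0.339), RPL37 (0.556), RPL23A (0.482), RPL39 (0.483), EEF1A1 (0.271) and TPT1 (0.334) among translation genes, NDUFS4 (0.523), COX1 (0.387), ND3 (0.387), COX5B (0.276), COX7A2 (0.262), ATP5ME (0.247) and MRPS33 (0.27) in mitochondria, MSMO1 (0.284), HMGCS1 (0.173) and FDFT1 (0.167) in cholesterol synthesis, and MT1G (0.583), ATP6V1D (0.259), ATP6V1E1 (0.18), CCNG1 (0.332) and PHLDA3 (0.213) elsewhere. With a curve on transcript length taken from each PC3 library the differences of COX7A2 and ATP5ME turned to -0.011 and -0.097, and that of ATP5ME was -0.051 with the curve in 12 libraries. GDF15 (-0.16) was the one with the larger rise in 22RV1. Genes called lower in both, with the larger fall in PC3, were E2F2 (-0.378), FAM222A (-0.309), TNS4 (-0.242), ESPL1 (-0.288), FOXM1 (-0.201) and PIK3R3 (-0.269).

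Genes called in PC3 and not in 22RV1 were TFPI (0.784), FST (0.683), ND2 (0.597), SOD2 (0.499), DUSP5 (0.593), TNFAIP3 (0.503), SLC38A2 (0.471) and B2M (0.383), which rose, and PMEPA1 (-0.585), CDC20 (-0.46), FERMT1 (-0.419), TRIM28 (-0.294), MFSD2A (-0.504), FZD8 (-0.324), WNT5A (-0.271) and E2F4 (-0.192), which fell. Genes called in 22RV1 and not in PC3 were CDKN1A (-0.333) and SLC1A5 (-0.333), which rose, and KLF10 (0.31), KLF11 (0.28) and TAOK3 (0.22), which fell.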

How the results depend on the processing

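The values below are counts of genes called unless named otherwise. The difference of the effects with 12 libraries, 17 genes, came to 7 with rlog values of the recovered PC3 reads, 11 with the stricter minimum levels, 1 with array weights, 467 with the length curve in PC3 and 369 with it in all 12 libraries. Without CANA B the same difference, 2272, came to 1446 with PC3 rlog and 1482 with array weights. The 22RV1 count of 1193 came to 335 with no filter on low values and 780 with the curve in 12 libraries. Genes called in both the same way, 367, came to 152 with no filter, 168 at adjusted p under 0.01 and 224 with the curve in 12 libraries, and those opposite, 47, to 16, 6 and, with the PC3 curve, 72. The 6-library PC3 count of 0 came to 350 with DESeq2 and 40 with the PC3 curve, and the correlation without CANA B, 0.21, to 0.115 and 0.142 and that with 6 PC3 libraries, 0.385, to 0.181 and 0.226 with the curve in PC3 and in 12 libraries. The cause of these shifts was not tested. The curve in 12 libraries was chosen after seeing the data.

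Leaving out single libraries gave 0 to 2683 for the 6-library PC3 count (the highest without CANA B), 774 to 3890 for PC3 without CANA B (774 without CANA C, 1223 and 1573 without controls A and B), 588 to 1332 in 22RV1 (588 without RT B, 684 and 689 without CANA + RT A and C), 1 to 2272 for the 12-library difference (2272 and 172 without CANA B and CANA A, 1 or 2 without PC3 control A or B or any one 22RV1 library) and 1265 to 3863 for the difference without CANA B (1265 without CANA C, 1307 without RT B, 1309 and 1364 without CANA + RT A and B, 1510 without RT C, 3863 without PC3 control C). It gave 197 to 422 same-direction and 7 to 87 opposite genes, 1202 to 1671 genes apart the same way and 257 to 532 apart opposite ways (532 without CANA B, 387 without PC3 control C, 373 and 409 without RT A and C, 359 and 402 without CANA + RT A and C), and correlations of 0.171 to 0.223 and, with 6 PC3 libraries, 0.319 to 0.425.

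Same-letter deviations from the group means correlated at 0.12, 0.045 and 0.062 in PC3 and 0.10, 0.092 and 0.17 in 22RV1. Libraries of different letters were not compared in this way, so whether the letters pair the libraries is not settled. The main fits leave the letter out. A block on it took the PC3 count without CANA B from 2683 to 3524 and the 22RV1 count from 1193 to 1775. With the replicate block the difference came to 0 with 12 libraries and 3454 without CANA B, same-direction genes to 611 and opposite genes to 106.

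For the 114 named genes, 342 values were refitted: 4616 refits kept direction and call, 445 lost the call, 52 gained it and 5 changed sign. With the PC3 length curve ATP8 read -0.064 and NDUFA13 -0.074 in PC3, and the differences of COX7A2 and ATP5ME were -0.011 and -0.097. With the curve in 12 libraries the difference of ATP5ME was -0.051. CANA B was the shallowest PC3 library, and the depth of the 22RV1 libraries is unknown.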

Other observations

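Several further lists had more calls in one line than in the other, and the difference of these counts was not tested. Over the 12547 genes tested in both, 1318 were higher and 1243 lower in PC3, against 639 and 483 in 22RV1. Chaperones of the endoplasmic reticulum and unfolded protein response genes were called higher for 7 of 24 and lower for 1 in PC3, and for none in 22RV1. Proteasome subunits gave 12 of 32 higher and 3 lower in PC3 and 1 higher in 22RV1, which was also higher in PC3. Of 18 glycolysis genes, 1 was higher and 2 lower in PC3 and 5 were higher in 22RV1, 1 of them in both.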
